A study of Mus musculus with 2 samples.

Results

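Peaks of N4-acetylcytidine (ac4C) in short protein-coding genes of the mouse uterus were examined. A peak was taken when its summit, on chromosomes 1 to 19, lay in exactly 1 protein-coding gene, and when the RefSeq span of that gene, introns included, was under 5 kb (positions are on mm10, GRCm38). These were 1097 of the 21192 peaks of the list, in 698 genes. For comparison, 18047 peaks lay in single protein-coding genes of 5 kb or more on the same chromosomes. The rule used positions and gene spans only, and neither the enrichment nor the width of a peak entered it. The series held 1 ac4C immunoprecipitation library and 1 input control library, both made from polyA RNA of whole wild-type uterus taken on gestational day 4. The strain, the number of animals and whether their tissue was pooled were not given in the sources used here. With 1 library a group, no value below has a replicate check, and no test was made.

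The acetyl group of ac4C is placed on cytidine by the acetyltransferase NAT10, and in acRIP-seq an antibody pulls down the RNA fragments that carry it. Short protein-coding genes are a mixed class. They include genes with no intron or very short ones, such as histone, Sox, forkhead and Jun genes, and compact genes of abundant proteins such as those of the ribosome. On gestational day 4 the uterus of the mouse becomes receptive to the embryo, and several regulators of that step, among them Hand2, Msx1 and Cebpb, are short genes.

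A peak gives the place where immunoprecipitated fragments pile up. Its fold enrichment is the authors' peak caller's value of the signal over background at the summit. That value and the p-value together give back how many fragments the summit held. Where a 95% interval follows a fold enrichment, it is exact Poisson, computed on this number, and it covers counting error of the immunoprecipitation only. The median summit of the 1097 peaks held 28 fragments (range 4 to 231) with a background of 3.63, and the median summit in longer genes held 21 with a background of 2.63. As a check of the tissue, 7 of 8 epithelial markers, 7 of 7 stromal, 5 of 6 myometrial and 4 of 4 endothelial markers of any span held a peak, with Epcam and Tagln without one. Of 4 immune markers 3 held a peak, of 4 globin genes of red blood cells 2, and of 4 ovarian markers only Amh, at 4.16-fold. For comparison, 30.1% of all protein-coding genes of chromosomes 1 to 19 held a peak. The share was 34.8% at spans of 20 to 100 kb and 47.8% at 100 kb or more, and several of the markers are that long. A gene with no peak may still be expressed, since a peak needs both transcript and enrichment.

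Sequence was at hand for the starts of genes only. RefSeq promoter entries (GRCm38.p6) whose start site lay at the outer end of the span were found for 459 of the 698 genes. In 21 of the 459 (4.58%) the first 50 transcribed bases lay wholly under a peak, against 3.68% of longer genes with a peak. A CNN triplet repeated 4 times, in which each C is followed by any 2 bases, was searched for on the transcribed strand, because CXX repeats are known from earlier work as a sequence context of ac4C. It was found in 4 of the 21 genes, and a stretch of 30 bases of each is shown, 5′ to 3′, with the matched bases in capitals. The same length is shown for the 4 genes of highest fold enrichment among the 17 with no match. At the end of the stretch of Rhob the capitals belong to another match that runs past it.
Gdf7 (chr12:8301905-8301934, minus strand): catggacctgagcgCTGCCGCCGCGCtgtg
Rhob (chr12:8499980-8500009, minus strand): atCTGCCACCGCAGttcggttgtCGTCGTC
Gm42427 (chr5:44140628-44140657, plus strand): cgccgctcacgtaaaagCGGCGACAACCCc
H1f4 (chr13:23622520-23622549, minus strand): tggccagtcCCTCTGCTTCCGgctcgagtt
Foxl2 (chr9:98955607-98955636, plus strand): caccaggagagcacagcctccgggctgccc
Bmyc (chr2:25706879-25706908, plus strand): gcagccctgcacccctccgggtcgcctcca
H3c13 (chr3:96268654-96268683, plus strand): gtatggccacttggcgtctgcaagccgaag
Hspa1b (chr17:34959209-34959238, minus strand): accagacgctgacagctactcagaatcaaa

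The peaks over the 4 genes with a match stood at 9.04-fold (Gdf7), 8.24-fold (Rhob), 6.64-fold (Gm42427) and 4.92-fold (H1f4). The peaks over the starts of Foxl2, Bmyc, H3c13 and Hspa1b stood at 16.17, 15.995, 13.59 and 12.27-fold. These 4 were shown for their height, and the 17 genes with no match ranged down to 4.66-fold (Tnfrsf18). Among the 21 genes the repeat was found in 19.05% (95% Wilson interval 7.67 to 40.001%). It was found in 27.4% of the first 50 bases of 438 other short genes with a peak, in 19.4% of 2823 short genes with none, and in 24.9% of all 9841 protein-coding genes with such an entry. In genes of 5 kb or more the repeat was found in 44.2% (33.6 to 55.3%) of 77 starts under a peak, in 34.7% of genes with a peak elsewhere and in 23.5% of genes with none. On either strand the shares of the short genes and of all genes were 47.6%, 52.7%, 35.8% and 48.2% in the same order. The median cytidine content of the first 50 bases was 30% in the 21 genes, 28% in the 438 and 24% in the 2823. In the longer genes it was 32%, 30% and 28%. Their median content of G and C together was 70%, 68% and 58%, against 62%, 62% and 50% in the short genes. The part of base content in the shares was not tested. The interval of the 21 short genes holds the shares of the 438, the 2823 and all genes, and overlaps that of the 77, and no test was made. The sequence under the summits themselves was not used here.

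Short genes held peaks less often than longer ones. A peak was found in 698 of 4569 short protein-coding genes (15.3%, 95% Wilson interval 14.3 to 16.3%), against 30.1% of all 20665 protein-coding genes of these chromosomes and 34.3% (33.6 to 35.0%) of those of 5 kb or more. The share rose through the classes of span, from 29.0% at 5 to 20 kb to 34.8% at 20 to 100 kb and 47.8% at 100 kb or more. Within the short genes it was 7.03% under 2 kb, 22.0% at 2 to 3.5 kb and 25.1% at 3.5 to 5 kb. The short class holds many genes of the sensory receptor and hair protein families. Of 1261 olfactory, vomeronasal and trace amine receptor genes 0 held a peak (95% Wilson interval up to 0.304%), nor did any of 56 keratin-associated protein genes (up to 6.42%). Both families were chosen after the values were seen. Many of these genes span less than 2 kb, and their part in the low share under 2 kb was not tested. Transcript levels of the short genes were not measured in the peak list.

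This share varied by chromosome. Chromosome 16 was lowest at 6.55% (95% interval 3.69 to 11.3%), and chromosome 13 was highest at 31.8% (25.6 to 38.7%). Chromosome 13 carries the largest histone gene cluster, and 46 of its 61 short genes with a peak were histone genes. Without the histone genes 15 of 142 short genes of chromosome 13 held a peak (10.6%, 6.51 to 16.7%). Chromosome 16 carries olfactory receptor and keratin-associated protein genes, none with a peak. Its share without them was not worked out.

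A single peak was found in 419 of the 698 genes (60.03%), against 38.6% of longer genes with a peak. A further 195 genes held 2 peaks, 55 held 3 and 29 held 4 or more. Pgls, a lactonase of the pentose phosphate pathway, and Phb2, a prohibitin of the inner mitochondrial membrane, held 6 each. The 6 peaks of Pgls stood at 4.14 to 9.10-fold and those of Phb2 at 4.25 to 7.23-fold, while Phf1, a Polycomb-associated protein with a PHD finger, held 5 at 5.39 to 7.84-fold, and the predicted genes Gm46911 and Gm52787 held 5 each as well, at 4.57 to 10.1-fold and 3.91 to 6.398-fold. In all 5 genes the peaks lay along the whole span, and the highest was the last before the gene end. The interval of the lowest peak overlapped that of the highest in Pgls, Phb2, Phf1 and Gm52787, but not in Gm46911, where they were 3.13 to 6.47 and 7.38 to 13.6.

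**Figure D1:**
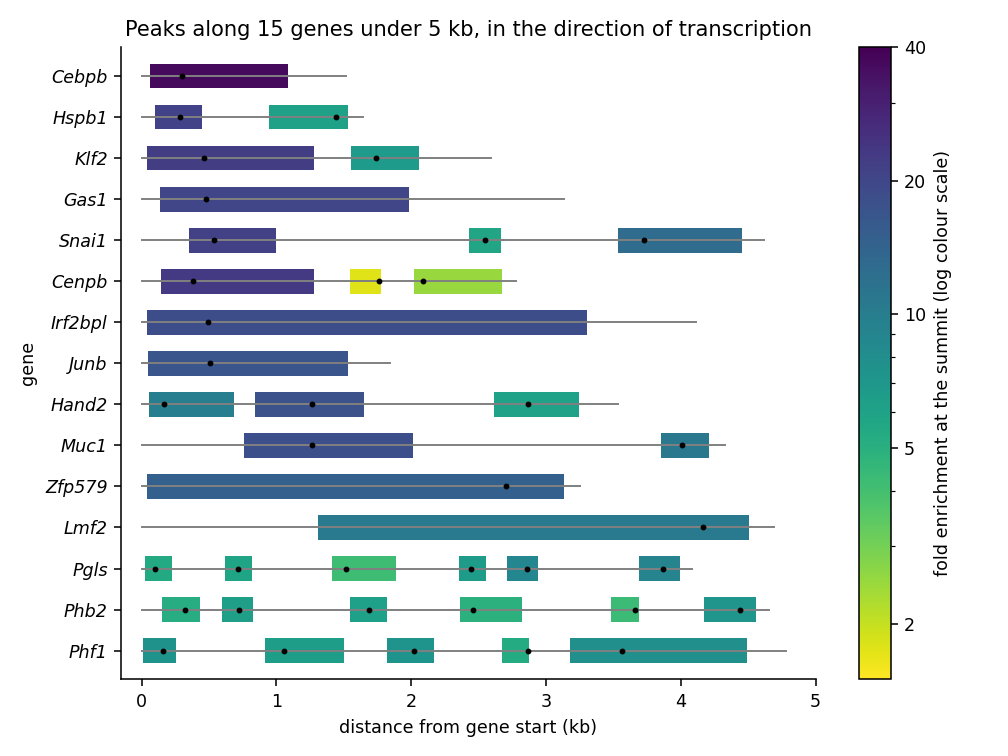
Peaks along 15 genes under 5 kb, with the distance from the gene start in kb on the horizontal axis and 1 gene a row, read in the direction of transcription. Grey lines are gene spans, bars are peaks coloured by fold enrichment on a log scale, and dots are summits. The highest peaks of Cebpb, Hspb1, Klf2, Gas1, Snai1 and Cenpb lie near the gene start, while the 6 peaks of Pgls and of Phb2 lie along the whole span.

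Peaks took up much of the span in some of these genes. The share of a gene's span under its peaks had a median of 24.5% (interquartile range 12.1 to 46.0%). It was 50% or more in 157 genes (22.5%) and 80% or more in 31. The claudin gene Cldn3, whose protein seals the tight junctions of epithelial cells, stood highest, with 96.5% of its 1263 bp under 1 peak of 1238 bp at 8.26-fold on 170 fragments. In the zinc finger gene Zfp579 a peak covered 95.3% of the span, in the cytokine gene Mif 95.2% at 12.3-fold, and in the linker histone gene H1f10 93.0%. Cited4, a coactivator-binding protein gene, followed among others with 91.8% at 17.8-fold. Cldn3, Mif and Cited4 were named here after their values were seen. A peak over nearly a whole gene gives the place of a modified base only as far as its summit does.

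Summits in short genes were spread almost evenly along the span. Strand, and so the direction of the gene, was known from RefSeq promoter entries for 564 of the 698 genes, which hold 888 of the 1097 peaks. The median place of these summits was 0.542 of the way from the gene start to the gene end (interquartile range 0.3001 to 0.786). The final 10% of the span held 10.5% of them (95% Wilson interval 8.63 to 12.7%), where an even spread would give 10%. In genes of 5 kb or more that stretch held 25.95% of 14345 summits, and the share was 18.6% at 5 to 20 kb, 26.9% at 20 to 100 kb and 31.8% at 100 kb or more. The opening 10% held 6.31% in short genes (4.89 to 8.10%) and 11.3% in the longer ones. Each 10% step between them held 8.90 to 11.9% in short genes. Intervals here count summits, and summits of 1 gene share its transcript. Place was measured along the genomic span, introns included, and not along the transcript. Exons were not used, so the part of exon layout in the difference from longer genes was not tested.

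**Figure D2:**
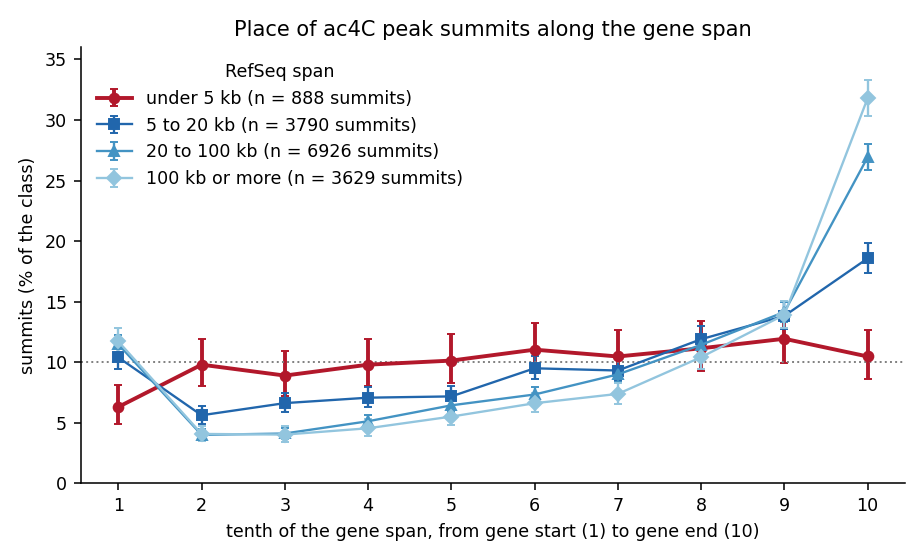
Share of summits, in percent, in each 10% step of the gene span from gene start to gene end, for 888 summits in genes under 5 kb and for 3 classes of longer genes. Points are shares with 95% Wilson intervals and the dotted line marks 10%. The final 10% holds 10.5% of summits in short genes and 31.8% in genes of 100 kb or more.

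The even spread was not the same at every length. Among the 155 summits in genes under 2 kb the opening 10% of the span held 0.645% and the final 10% held 1.94%, and the 2 steps on either side of the middle held 17.4% each. Among the 439 summits in genes of 3.5 to 5 kb the final 10% held 13.7% and the opening 10% held 7.74%. In bp, the median summit of short genes lay 1493 bp from the gene start and 1283 bp from the gene end. Of the 888 summits 230 (25.9%) lay within 500 bp of the gene end and 165 (18.6%) within 500 bp of its start. In longer genes these shares were 3.90% and 4.71%. A 10% step of a short span is at most 500 bp, close to the width of a peak, so the end of a short gene is resolved less finely than that of a long one. In 48 of the 1097 peaks (4.38%) the peak ran past an end of the gene, against 0.654% in longer genes. This too follows in part from the span limit, as summits in a short span lie closer to an end.

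Peaks of 10-fold or more were found more often in the part of a short gene near its start. Along the span in 20% steps, 16.8% of the 143 summits in the opening step (95% interval 11.5 to 23.8%) were at 10-fold or more, and 18.1% of the 166 in the step after it (12.96 to 24.6%). In the 3 later steps these shares were 5.85%, 9.38% and 8.04%, and the interval of the final step (5.01 to 12.7%) overlapped that of the opening one but not that of the step after it. The median fold enrichment was 6.17 in the opening step and 5.09 in the final one. The background of the summits moved the other way, with medians of 2.32 and 5.25 fragments in those steps, and its part in the difference was not tested. In genes of 5 kb or more 13.5% of summits in the opening step were at 10-fold or more and 8.30% in the final one, with median backgrounds of 1.43 and 3.502. In 220 short genes of known strand with several peaks, the highest was first in 107, last in 92 and between in 21. Within genes the order was thus not fixed. A gene with 2 peaks has none between, and 195 short genes of any strand held exactly 2. The 21 therefore cannot be set beside the 107 and the 92. Across the 888 summits Spearman's rho of place and fold enrichment was -0.20.

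**Figure D3:**
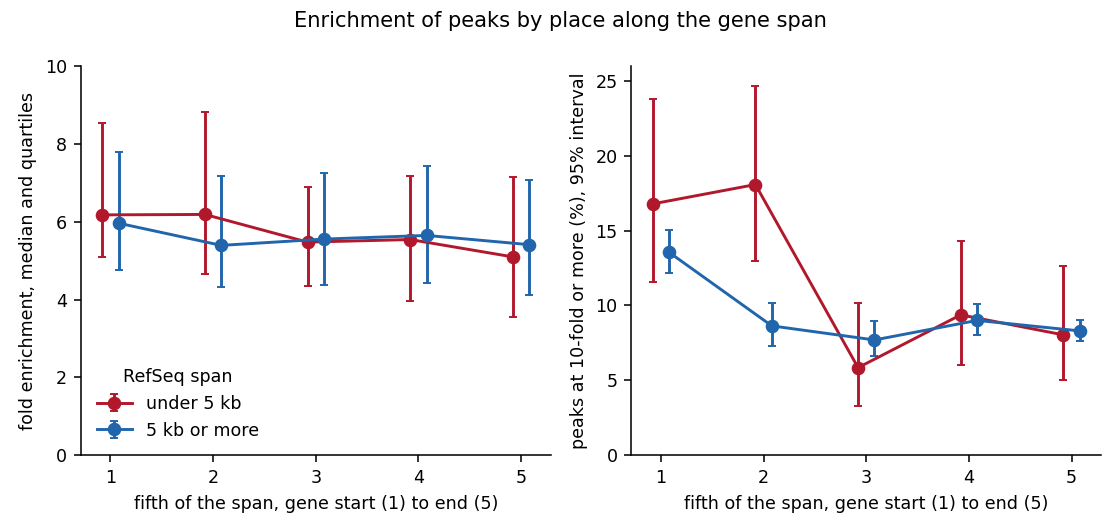
Fold enrichment at the summit as median and quartiles (left) and the share of peaks at 10-fold or more in percent with 95% Wilson intervals (right), by 20% step of the gene span from gene start to gene end, in genes under 5 kb and in longer genes. In short genes 16.8% and 18.1% of peaks in the 2 steps nearest the start reach 10-fold, against 8.04% in the final step.

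Peaks in short genes were wider than in longer ones, at about the same median enrichment. The median was 373 bp wide (quartiles 258 and 596 bp), against 311 bp (quartiles 228 and 468.5 bp) in genes of 5 kb or more. A width of 1000 bp or more was found in 124 peaks (11.3%) against 5.06%, and the smallest width of the list, 200 bp, in 47 peaks (4.28%) against 8.06%. The median fold enrichment was 5.64 (4.27 to 7.54) in short genes and 5.57 (4.35 to 7.30) in longer ones. More of the short genes' peaks had a deep background. A background of 16 fragments or more was found at 12.1% of them and at 2.93% in longer genes, with median fold enrichments of 3.70 and 3.16. The widths differed within most classes of background too. Below 1 fragment the median width was 333 bp in short genes and 263 bp in longer ones, from 1 to under 4 it was 374 and 305 bp, and from 4 to under 16 it was 391 and 351 bp. At 16 fragments or more the order turned, with 365 bp in short genes and 378 bp in longer ones.

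Among the short genes wide peaks were also the enriched ones. The 389 peaks under 300 bp had a median of 5.01-fold and the 124 peaks of 1000 bp or more a median of 9.45-fold, with median fragment numbers of 22 and 50. Spearman's rho of width and fold enrichment was 0.34 over the 1097 peaks and 0.22 over the 18047 in longer genes, as a description of peaks that share 1 library. The widest peaks were those of Irf2bpl, a transcriptional regulator, at 3269 bp, Lmf2, a lipase maturation factor, at 3196 bp, and Zfp579 at 3096 bp. The predicted gene Gm52236 at 2746 bp and Prrt2, a protein of the presynapse, at 2622 bp followed. Irf2bpl stood at 18.5-fold, Zfp579 at 14.8-fold, Lmf2 at 10.5-fold, Gm52236 at 9.48-fold and Prrt2 at 8.48-fold. The peak of Irf2bpl had its summit 492 bp from the gene start and that of Zfp579 547 bp from the gene end, so a wide peak did not have its summit in the same part of each gene.

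**Figure D4:**
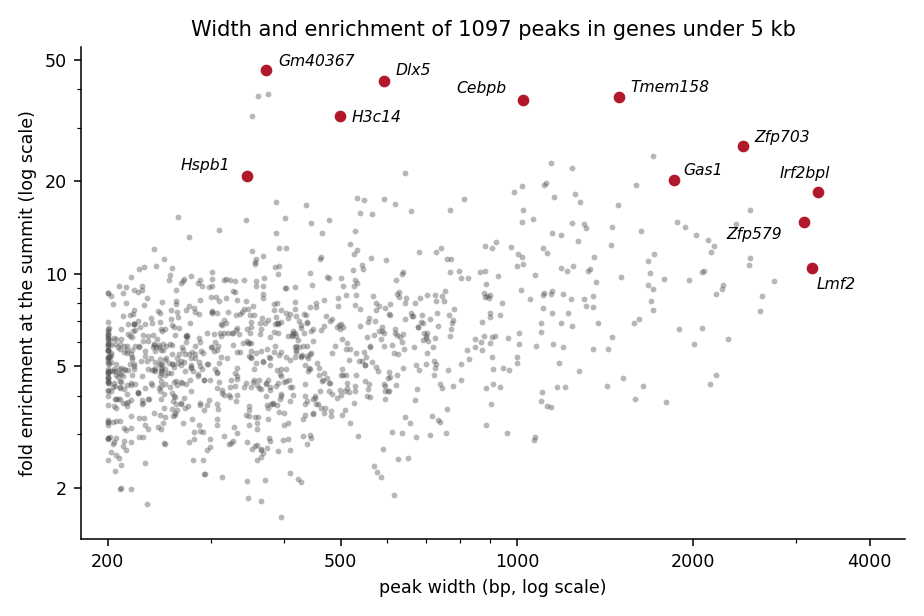
Peak width in bp against fold enrichment at the summit, both on log scales, for the 1097 peaks in genes under 5 kb, 1 point a peak. Named peaks are in red, among them the widest, of Irf2bpl at 3269 bp, and those of Gm40367, Dlx5, Tmem158 and Cebpb, which stand above 36-fold.

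Of the 698 genes 116 had their highest peak at 10-fold or more (16.6%), against 19.5% of the 6220 genes of any span with a peak. The 15 genes of highest enrichment were mostly regulators of transcription and signalling, apart from 4 predicted genes. Dlx5, a distal-less homeobox factor, stood at 42.6-fold (95% interval 35.4 to 50.9) at a peak on chromosome 6 from 6881452 to 6882043, on 120 fragments. Its other 3 peaks stood at 5.17, 7.32 and 7.77-fold, all with intervals below that of the highest. Tmem158, a membrane protein gene, followed at 37.6-fold (30.9 to 45.3), with 1 peak of 1493 bp over 86.2% of its span (chromosome 9, 123259291 to 123260783).

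Cebpb, a basic leucine zipper factor that stromal cells need to decidualize, stood at 36.8-fold (27.4 to 48.4). Its single peak of 1022 bp (chromosome 2, 167688978 to 167689999) held 49 fragments against 0.359 of background, and its summit lay 299 bp from the gene start. Zfp703, a zinc finger corepressor, stood at 26.2-fold (21.2 to 32.0) at a peak of 2432 bp and at 2.08 to 9.30-fold at 3 others.

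Cenpb, which binds satellite DNA at centromeres, held 1 high and 2 low peaks. The peak near its start stood at 23.0-fold (19.002 to 27.5) over 4.10 fragments, and the 2 others at 2.50 and 1.77-fold over 15.4 and 26.7 fragments. The Krüppel-like factor gene Klf2 (22.2-fold, 17.0 to 28.4), the E-cadherin repressor gene Snai1 (21.3-fold, 15.3 to 28.8), the small heat shock protein gene Hspb1 (20.9-fold, 15.1 to 28.3) and Gas1, a Hedgehog co-receptor gene (20.2-fold, 16.8 to 24.0), followed. The histone gene H3c14 stood at 32.7-fold (26.3 to 40.2). Cebpb, Cenpb, Klf2, Snai1, Hspb1 and Gas1 had the summit of the highest peak in the opening 20% of the span, between 288 and 541 bp from the gene start. In H3c14 and the 4 predicted genes it lay further on, and the strand of Dlx5, Tmem158 and Zfp703 was not used here.

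Also among the 15 were Gm40367 (46.3-fold), Gm40364 (38.7-fold), Gm40369 (37.97-fold) and Gm36327 (32.7-fold). They lie together on chromosome 6, where their 5 peaks run from 47654879 to 47681742, and each of the 5 had the lowest background of the list, 0.317 fragments. Their highest peaks were 353 to 376 bp wide on 42 to 60 fragments. Genes of a repeated stretch can share reads, so the value of each single gene here was uncertain.

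Gene lists were set against the short genes as a whole, of which 15.3% held a peak and had a median of 6.22-fold at the highest peak. That 15.3% counts the 1261 receptor and 56 keratin-associated protein genes, none with a peak. The share among the other short genes is therefore higher. Apart from the receptor, hair protein and Gm families, 13 lists together took in 211 of the 698 genes, and 4 genes were in more than 1 list. The 13 lists were drawn up with earlier results of these data known, so the counts below describe the lists and test nothing. Housekeeping, cytoskeletal and heat shock genes held a peak in 23 of 23 and histone genes in 60 of 69. Immediate early and early response genes held a peak in 37 of 50, and ribosomal protein genes in 44 of 68. As transcript levels were not measured, how far these counts follow abundance was not tested. In whole tissue, fewer cells of a type and less RNA per cell cannot be told apart either.

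**Figure D5:**
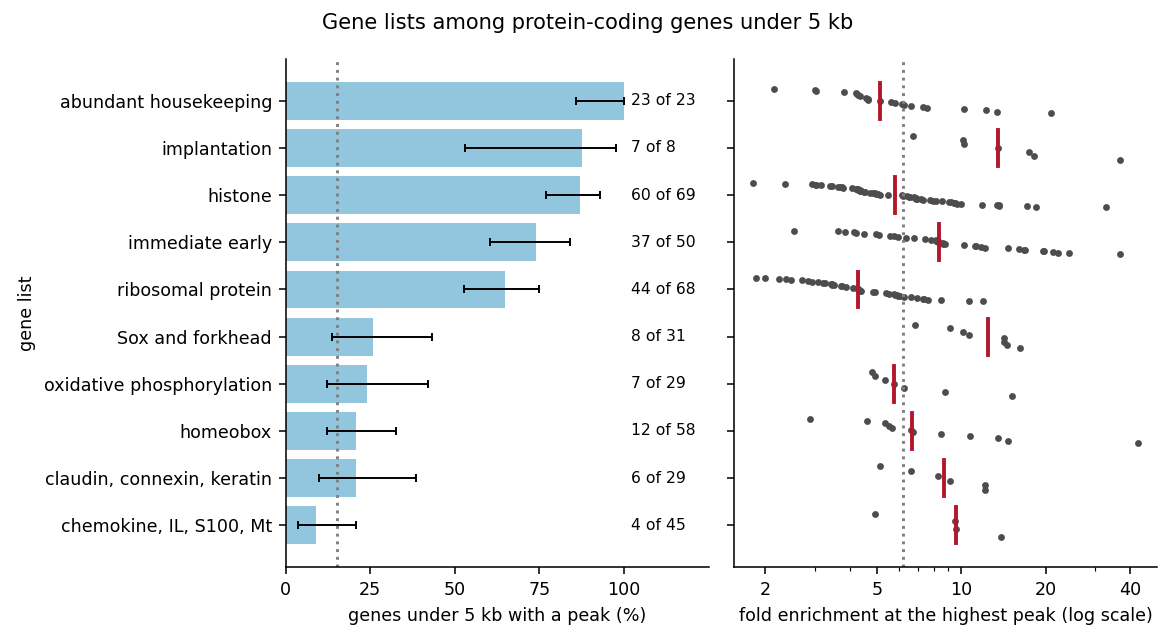
Share of the short genes of each list that hold a peak, in percent with 95% Wilson intervals and counts (left), and fold enrichment at the highest peak on a log scale, 1 point a gene (right). Red bars are list medians, and dotted lines are the values over all short genes, 15.3% and 6.22-fold. The row labelled abundant housekeeping is the list of housekeeping, cytoskeletal and heat shock genes, whose transcript levels were not measured.

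Genes with a known part in implantation included 8 short ones, and 7 of these held a peak, with a median of 13.6-fold. All but Hoxa11 were at 10-fold or more. The list was drawn up with earlier results of these data known. Muc1, the mucin of the epithelial surface, stood at 18.2-fold (13.9 to 23.5) at a summit 1268 bp from the gene start and at 10.7-fold (6.83 to 16.1) at one 319 bp from the gene end, with overlapping intervals. Hand2, a stromal factor that acts downstream of progesterone, held 3 peaks at 9.96, 17.5 and 5.997-fold from its start to its end, and the interval of the middle one (13.9 to 21.7) lay above those of both others. The homeobox gene Msx1 held 2 wide peaks, of 1149 and 1106 bp, at 13.6-fold (10.7 to 17.0) near the start and 12.1-fold (9.63 to 15.03) further on, which did not differ beyond their counting error.

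Cited2, a coactivator-binding protein gene, and Foxa2, a factor of the uterine glands, stood at 10.2-fold each, the first on 36 fragments and the second on 19. Hoxa11, a homeobox factor of the stroma, held 2 peaks at 6.74 and 5.96-fold with overlapping intervals, over backgrounds of 14.9 and 10.2 fragments. Hmx3, a homeobox factor, held no peak.

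Immediate early and early response genes had a median of 8.35-fold, with 15 of 37 at 10-fold or more against 16.6% of all short genes with a peak. Cebpb, Klf2 and Snai1 were among its highest. The peaks of the list covered a median of 44.6% of the gene, and 14 of the 39 summits of known strand lay in the part of the gene nearer its end, against 489 of 888 (55.1%) over all short genes. Of the AP-1 genes Jund stood at 19.5-fold, Junb at 16.8-fold, Fos at 11.2-fold and Jun at 8.61-fold, genes named after their values were seen.

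Sox and forkhead genes held a peak in 8 of 31 (25.8%, 13.7 to 43.2%), and this interval holds the 15.3% of all short genes. The 8 had a median of 12.4-fold, with 6 at 10-fold or more. Foxl2, a forkhead factor of the ovary and uterus, stood at 16.2-fold (12.1 to 21.2) at a peak of 2500 bp that began before the gene start. Sox12, Sox18 and Sox4 stood at 14.5, 14.2 and 14.2-fold with peaks of 2368, 1454 and 1935 bp. The intervals of these 4 genes overlapped. Homeobox genes held a peak in 12 of 58 (20.7%, 12.3 to 32.8%), an interval that holds the 15.3% as well, and had a median of 6.67-fold. Dlx5, Dlx6 (14.6-fold), Msx1 and Hoxb2 (10.8-fold) were the 4 at 10-fold or more, and the other 8 stood between 2.89 and 8.44-fold.

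Histone genes had a median of 5.82-fold at 1 peak each, over a median background of 10.5 fragments, and their peaks covered a median of 70.9% of the gene. After H3c14 the highest were H1f10 (18.5-fold), H3c1 (17.1-fold), H3c13 (13.6-fold) and H3c4 (13.6-fold), of which the last 2 had the same value. Transcripts of the replication-dependent histone genes end in a stem-loop and mostly carry no polyA tail, while the libraries are labelled as polyA RNA. Copies of a histone family are nearly alike in sequence, so the division of fragments among them was uncertain. The 3 shortest genes with a peak were histone H4 genes, H4c3 (375 bp, 4.34-fold), H4c6 (383 bp, 4.86-fold) and H4c14 (384 bp, 6.98-fold).

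Ribosomal protein genes had a median of 4.29-fold, below the 6.22-fold of short genes with a peak, over a median background of 16.2 fragments against 3.09. They stood between 1.85-fold (Rpl23) and 11.9-fold (Rpl27a), with 2 of 44 at 10-fold or more. Rpl27a (9.18 to 15.2), Rpl37a at 8.48-fold and Rps13 at 7.62-fold were among the highest. Over the 1097 peaks Spearman's rho of background and fold enrichment was -0.50. Fold enrichment has the background as its divisor, so a negative rho is in part built in. The part of background in the low values was not tested. The list of housekeeping, cytoskeletal and heat shock genes, over a median background of 15.8, had a median of 5.12-fold. Its highest members were heat shock and tubulin genes, with Hspa1a (13.4-fold), Hspa1b (12.3-fold) and the tubulin gene Tubb2b (10.2-fold) after Hspb1. Hspa1a and Hspa1b are near-identical copies, and their values were uncertain for the same reason.

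The other 6 of the 13 lists held 1 to 7 genes with a peak each. Nuclear genes of oxidative phosphorylation had a peak in 7 of 29 (24.1%, 12.2 to 42.1%). They were led by the ATP synthase gene Atp5g3 at 15.2-fold (10.9 to 20.7), then Cox6a1 (8.75-fold), Ndufb7 (6.28-fold) and Ndufb10 (5.77-fold). Claudin, connexin and keratin genes had a peak in 6 of 29 (20.7%, 9.85 to 38.4%), and both intervals hold the 15.3% of all short genes. The epithelial claudin genes Cldn4 (12.1-fold, 8.86 to 16.2), Cldn23 (12.1-fold), Cldn7 (9.09-fold) and Cldn3 (8.26-fold) stood highest among them. Of 45 chemokine, interleukin, S100 and metallothionein genes 4 held a peak (8.89%, 3.51 to 20.7%). This interval holds the 15.3% of all short genes. The 4 were Mt1 (13.9-fold, 11.4 to 16.7), Mt2 (9.58-fold, 7.85 to 11.6), Ccl21d (9.51-fold) and Ccl21a (4.93-fold). The Ccl21 copies are too alike to trust either value for a single gene. The summits of the metal-binding Mt1 and Mt2 lay 209 and 214 bp from the gene end, on 110 and 105 fragments.

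Among secreted growth factors 3 of 16 short genes held a peak (18.75%, 6.59 to 43.0%), an interval that also holds the 15.3%. The 3 were Gdf7 at 9.04-fold, Artn at 5.09-fold and Inha at 4.27-fold, the last 2 on 9 and 7 fragments. Of 5 short matrix genes Mgp (6.38-fold), Mfap4 (5.91-fold) and Lgals1 (5.11-fold) held 2 peaks each, and Myl6, the 1 short gene of smooth muscle contraction, held 2 as well with 3.70-fold at the higher. Predicted genes with a Gm symbol, a list added after the values were seen, held a peak in 24 of 402, with a median of 9.95-fold and the repeated stretch of chromosome 6 among them.

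The limit of 5 kb divides a continuous range of spans. Just inside it were Noc4l (4964 bp, 9.57-fold), Camk2n1 (4979 bp, 5.14-fold) and Ubald2 (4984 bp, 17.4-fold). Just outside were Srsf5 (5013 bp, 2.99-fold), Pygo2 (5018 bp, 5.65-fold) and Myc (5021 bp, 8.16-fold). In 60 of the 1097 peaks (5.47%) the summit was shared with a gene that is not protein-coding, and the peak list gives no strand to part them.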

How the data were processed

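The data were 1 peak list of the ac4C immunoprecipitation. HISAT2 2.2.1, MACS3 3.0.0a7 and the build mm10 are listed, with no role or order, per the submitters' processing notes. Each peak has a fold enrichment (a ratio), a −log10 p-value and −log10 q-value, a score and a summit offset, as deposited by the authors; the score was not used. Which background the ratio refers to was not given in the sources used here.

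Genes and promoter entries came from RefSeq tables of GRCm38.p6, the same assembly as mm10. Summits were placed in gene spans, as neither exons nor genome sequence entered the work. Fragments at the summit were taken as the whole number that matched both the fold enrichment, with a pseudocount of 1, and the Poisson p-value. It matched within a relative 1e-05 in 21192 of 21192 peaks, and 99.95% of 2000 simulated peaks were recovered when this was tested on simulated data. Depth is known only through these fragments, and PCR copies were not told from separate molecules. Shares have 95% Wilson intervals. Python 3.11.15, pandas 2.3.3 and scipy 1.17.1 were used.

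The members and the gene lists were chosen with earlier results of these data known. Most genes were named by rule. These were the 15 of highest fold enrichment, the 5 with most peaks, the 5 with the widest peaks, the short implantation genes, the 4 highest of every other list, the 3 shortest and the 3 on each side of the span limit. A few others were named for their first bases or the share of span covered, or after their values were seen. Values of some genes that this rule names are not reported here. Promoter entries gave the strand of 564 of 698 genes. The alternatives concerned the q-value, fold enrichment, span limit, gene overlap, lowest background, chromosome X, peaks per gene and repeated genes.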

Additional observations from a re-analysis of the deposited data

How the results depend on the processing

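No paired analysis was possible because each group held 1 library and no result came from a test. Of 85 values under 11 alternatives, 68 stayed within the interval of the reported value or, for counts, within 1.5 times of it. With a −log10 q of at least 10 there were 626 peaks in 447 genes (9.78% of short genes), with a median of 6.97-fold and a median width of 445.5 bp. Among peaks no lower than the median fold enrichment of the list there were 561 peaks in 421 genes (9.21%), at 7.50-fold and 438 bp wide. The counts and the fold enrichment, but not the width, follow by construction of the filter. The median place along the span was then 0.510 and the opening 10% of the span held 8.32% of summits. With a span limit of 4 kb there were 702 peaks, 12.9% of short genes held one and the final 10% held 8.59% of summits. With 1 peak a gene, the highest, the median was 6.22-fold, by construction. Without histone genes 14.2% of short genes held a peak. The alternatives without histone genes and without the repeated stretch of chromosome 6 were chosen after seeing the data. Apart from those that follow by construction, the cause was not tested. The summit with the fewest fragments in a short gene held 4, and the missing peak of a short gene does not show that it carries no ac4C.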
